A study of Mus musculus with 20 samples.

Results

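The genes described here were Trp53, which encodes the transcription factor p53, its inhibitors Mdm2 and Mdm4, and 7 of its stress targets: Cdkn1a, Ccng1, Sesn2, Trp53inp1, Bbc3, Bax and Phlda3. They were chosen by symbol, and all 10 were found among the 34937 genes of the count tables. The comparison asked whether embryos in which genes for ribosome production were altered also showed a p53 response in their transcripts.

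Single mouse embryos of mixed background were collected at the 8-cell (8C) stage, embryonic day 2.5 (E2.5), and the RNA of each was sequenced. Control embryos (Ehmt2Cntr, n = 9) had Ehmt2F/+ mothers and maternally depleted embryos (Ehmt2Mat, n = 10) had Ehmt2F/- mothers, where F is a conditional allele of Ehmt2, the gene for the H3K9 methyltransferase G9a. The mothers of both groups carried Zp3-Cre, a recombinase expressed in growing oocytes, and the fathers were Ehmt2+/-. By zygotic genotype, 3 controls were +/- and 6 were +/+, while 5 Ehmt2Mat embryos were -/- (Ehmt2M/Z) and 5 were +/- (Ehmt2M/+). A control labelled number 4 was not analysed here. Only embryos of normal morphology were taken, the zona was removed, and the labels give no mother, litter or cell count, so that litter and maternal genotype cannot be told apart and p-values treat embryos as independent.

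In unstressed cells Mdm2, a ubiquitin ligase, keeps p53 protein unstable, and Mdm4 blocks its activity. Stress frees p53, which then raises the transcription of genes for cell cycle arrest, repair or apoptosis and also of Mdm2, closing a feedback loop. When ribosome assembly fails, free ribosomal proteins such as Rpl5 and Rpl11 bind Mdm2 and p53 accumulates, so a p53 response can occur without any change of Trp53 mRNA. Only RNA was measured in these embryos, and neither p53 protein nor its binding.

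The targets are bound by p53 through a response element of 2 copies of a palindromic decamer. Sequences that match this element are shown as candidate sites, and binding of p53 to them was not tested. The p53 response element was searched with at most 2 mismatches, with the core C and G of each decamer kept and at most 1 base between the decamers. The windows were RefSeq promoter windows (GRCm38.p6) from 250 bases before to 50 bases after a start. Of the 10 genes, 9 had a window, with 13 windows in all, and 3 genes had a match in the bases before a start. The site was found in 181 of 32851 windows of all genes (0.551%), and in 177 of 27025 genes with a window (0.655%). Most of the 10 genes were chosen as p53 targets, so their share was not tested against this background. The motif reads the same on both strands, so both were covered. Capitals mark the matched element and lower case the 20 bases on either side, 5′ to 3′ on the strand of the gene.
Bax (chr7:45467059-45467119, minus strand): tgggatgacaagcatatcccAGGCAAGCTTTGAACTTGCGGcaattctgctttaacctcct
Ccng1 (chr11:40755442-40755501, minus strand): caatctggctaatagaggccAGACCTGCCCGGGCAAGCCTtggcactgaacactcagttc
Cdkn1a (chr17:29090908-29090967, plus strand): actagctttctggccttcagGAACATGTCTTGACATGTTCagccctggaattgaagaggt
The Cdkn1a element lay 51 to 32 bases before the start and that of Ccng1 195 to 176 bases before it, each with 1 mismatch and no base between the decamers. The Bax element, 201 to 181 bases before the start, had 2 mismatches and 1 base between the decamers. Each distance is to the start of the window that held the match. Some genes had more than 1 window, so this need not be the main start of the gene. For Cdkn1a it was the first annotated base of the gene (29090979). A match is a description of the letters, and no match in the other windows says nothing about binding of p53 elsewhere in or near the gene.

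Total counts per embryo were 12985149 to 30053248 in controls and 8231646 to 30602434 in Ehmt2Mat embryos, so that 3 counts corresponded to 0.0911 to 0.363 CPM (the read share of a gene, scaled by library size and edgeR's TMM factors). Mitochondrial transcripts made up 6.47% to 20.4% of counts in controls and 8.03% to 21.7% in Ehmt2Mat embryos. No files held identical values. Ehmt2 transcript was 66.6 to 253 CPM in controls and 58.7 to 159 CPM in Ehmt2Mat embryos (log2 fold change -0.47, SE 0.24, edgeR adjusted p = 0.233); the counts cover the whole gene, including exons outside the conditional part. All 10 markers of the 8-cell embryo had counts in both groups, although the median of Cdx2 was 0 CPM in each. Their summed levels were 2216 to 3600 CPM in controls and 3189 to 4187 CPM in Ehmt2Mat embryos, led by Dppa3. Of these markers Tead4 and Tfap2c rose (log2 fold change 0.90 and 0.75, edgeR adjusted p = 0.00460 and 0.0183) and Klf5 fell by 1.49 on the log2 scale (edgeR adjusted p = 0.000486). Of 11 cumulus and granulosa cell markers, 7 were at 0 in every control and 6 in every Ehmt2Mat embryo, and their sums reached 5.02 and 40.1 CPM. The sums of 10 oocyte markers were 51.5 to 339 and 118 to 366 CPM. Those of 8 blood cell markers were 0.118 to 74.9 CPM in controls (median 1.25) and 0 to 264 CPM in Ehmt2Mat embryos (median 12.3). The oocyte marker Oosp1 rose (log2 fold change 2.70, edgeR adjusted p = 0.00277), while 6 of the 9 oocyte markers tested had a fold change below 0 and none fell. Their part in the results below was not tested.

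Of the 10 genes, 1 fell in Ehmt2Mat embryos, which was Trp53 itself, and none rose. Among all 11754 genes tested, 9.35% passed the same threshold (Benjamini-Hochberg adjusted p under 0.05 in edgeR's quasi-likelihood test), 4.37% upwards and 4.98% downwards. The median log2 fold change of the 10 genes was -0.16, against -0.04 for all genes tested, with 4 fold changes above 0 and 6 below. No inhibitor or target of p53 among them passed the threshold in either direction. Trp53inp1 was nearest to it.

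**Figure D1:**
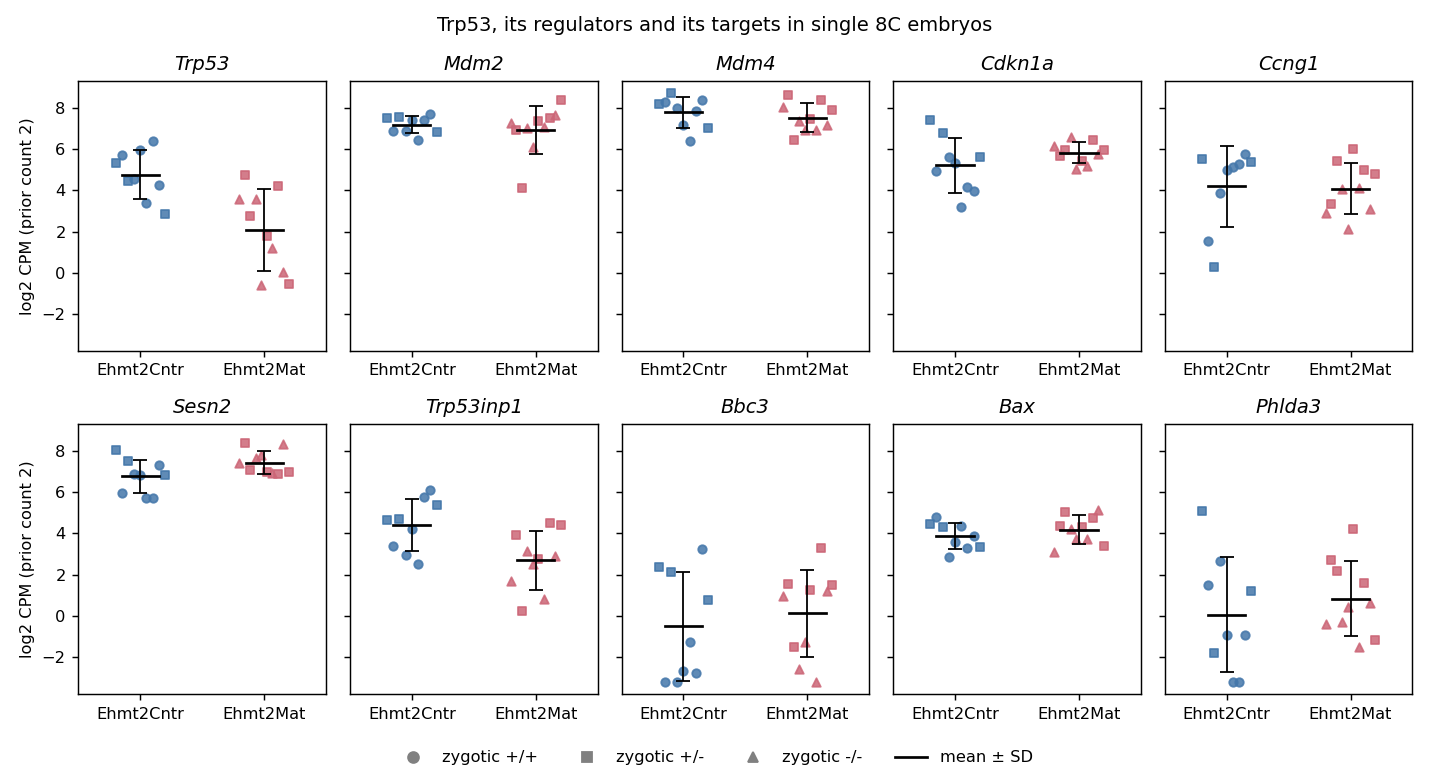
Level of each of the 10 genes in single 8C embryos, on a log2 CPM scale with a prior count of 2. Each point is 1 embryo, its shape gives the zygotic genotype, and bars give the mean ± SD of 9 Ehmt2Cntr and 10 Ehmt2Mat embryos. The means of Trp53 and Trp53inp1 are lower in Ehmt2Mat embryos and the ranges overlap. Bbc3 reaches the bottom of the scale in both groups, and Phlda3 in controls alone.

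Trp53 (ENSMUSG00000059552, chromosome 11, 69580359 to 69591873, plus strand, GRCm38) encodes p53, whose inhibitors and stress targets are the other genes of the group. It was 7.00, 23.1 and 84.6 CPM in the lowest, median and highest control and 0.543, 5.02 and 26.8 CPM in Ehmt2Mat embryos. In 9 of 10 Ehmt2Mat embryos it lay below the control median and in 6 below every control, but embryos 2, 8, 1 and 4 (26.8, 18.6, 12.0 and 11.6 CPM) overlapped the controls. Ehmt2Mat embryos 5 and 10 had 7 reads each, while the lowest read number in a control was 136.

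The level of Trp53 was 4.25-fold lower in Ehmt2Mat embryos (log2 fold change -2.09, SE 0.64, 95% interval -3.42 to -0.76, edgeR adjusted p = 0.0407). In the exact permutation test over all 92378 splits of the 19 embryos, the difference of mean log2(CPM + 1) was -2.28 (unadjusted two-sided p = 0.00289). These are shares of an embryo's counted RNA, and fewer cells with Trp53 transcript cannot be told apart from less of it per cell. The call held in 8 and was lost in 11 of the 19 fits that each left out 1 embryo, and the log2 fold change in these 19 fits lay between -2.50 and -1.82. Without control 1, 2, 6 or 8, edgeR's adjusted p was 0.0567, 0.0669, 0.0728 and 0.0920. Without Ehmt2Mat embryo 1, 3, 4 or 5 it was 0.0544, 0.0596, 0.0541 and 0.0555, and without embryo 6, 7 or 9 it was 0.0643, 0.0634 and 0.0597. With 3 +/- controls and 5 Ehmt2M/+ embryos alone, which share their zygotic genotype, the log2 fold change was -1.03 (edgeR adjusted p = 0.962), in a fit that called 1 of 13401 genes (0.00746%). A filter of at least 10 reads in every embryo removed Trp53, and 10.3% of the genes it kept were called lower. By a summed level of Y-linked genes above 1 CPM, 5 of 9 controls and 9 of 10 Ehmt2Mat embryos were taken as male. The lowest male was at 2.31 CPM and the highest female at 0.904 CPM, so the split is uncertain near the cut. With sex as a covariate the log2 fold change of Trp53 was -2.70 (edgeR adjusted p = 0.0116, with 5.14% of all genes lower). That fit had few female Ehmt2Mat embryos.

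Neither inhibitor of p53 passed the test. Mdm2, the ubiquitin ligase that is also a target of p53, was 87.8, 170 and 210 CPM in the lowest, median and highest control and 17.1, 144 and 332 CPM in Ehmt2Mat embryos. Ehmt2Mat embryos 3 and 5 were below every control and embryo 10 above every control, and the other 7 lay within the range of the controls. The log2 fold change of Mdm2 was 0.00 (SE 0.32, 95% interval -0.65 to 0.65, edgeR adjusted p = 0.999), and its sign differed between alternative fits, with 13 below and 15 above 0. Mdm4, which binds p53 but is not an active ligase on its own, was 84.5, 254 and 418 CPM in controls and 87.1, 172 and 394 CPM in Ehmt2Mat embryos. The groups overlapped along nearly their whole range, with a log2 fold change of -0.26 (SE 0.29, 95% interval -0.86 to 0.34, edgeR adjusted p = 0.659).

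Among the targets for growth arrest and repair, Cdkn1a encodes p21, an inhibitor of cyclin-dependent kinases and a widely used readout of p53 activity. It was 9.00, 39.3 and 168 CPM in the lowest, median and highest control and 32.8, 57.8 and 96.8 CPM in Ehmt2Mat embryos. The range of Ehmt2Mat embryos lay wholly inside that of the controls. Its log2 fold change was 0.14 (SE 0.41, 95% interval -0.71 to 0.98, edgeR adjusted p = 0.891). Ccng1 encodes cyclin G1, which brings a phosphatase to Mdm2. It was 1.08, 35.5 and 53.4 CPM in controls and 4.19, 17.0 and 64.1 CPM in Ehmt2Mat embryos, so that the groups overlapped, with 8 of 10 Ehmt2Mat embryos below the control median. Its log2 fold change was -0.36 (SE 0.56, 95% interval -1.51 to 0.79, edgeR adjusted p = 0.771).

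Sesn2 encodes sestrin 2, a stress protein that restrains mTORC1, and is also counted in the list of integrated stress response genes below. It was 52.998, 115 and 265 CPM in the lowest, median and highest control and 117, 152 and 333 CPM in Ehmt2Mat embryos. No Ehmt2Mat embryo was below the control median and 2 (embryos 2 and 9) were above every control, yet controls 1, 3, 5 and 9 lay among the Ehmt2Mat embryos. The log2 fold change of 0.59 missed the threshold (SE 0.30, 95% interval -0.03 to 1.20, edgeR adjusted p = 0.237), as did the exact permutation test (unadjusted two-sided p = 0.0523). Between +/- embryos of both groups alone it was -0.18 (edgeR adjusted p = 0.991).

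Trp53inp1 encodes a nuclear protein that promotes p53-dependent apoptosis. It was 5.62, 25.03 and 69.7 CPM in the lowest, median and highest control and 1.09, 7.06 and 22.5 CPM in Ehmt2Mat embryos. All 10 Ehmt2Mat embryos lay below the control median and 4 below every control, while controls 2, 5, 6 and 7 (5.62 to 18.5 CPM) lay in the range of the Ehmt2Mat embryos. The log2 fold change was -1.62 (SE 0.55, 95% interval -2.75 to -0.50) and narrowly missed the threshold (edgeR adjusted p = 0.0605). The exact permutation test gave an unadjusted two-sided p of 0.0138. The gene passed with DESeq2 (adjusted p = 0.0167, with 8.06% of all genes lower) and in the edgeR fit on counts thinned to the lowest total (adjusted p = 0.0422, with 5.51% lower). It did not pass in 21 of 27 alternatives, among them 15 of the 19 fits without 1 embryo (edgeR adjusted p up to 0.134, without control 9) and the fit with sex as a covariate (0.145). Among the fits without 1 embryo it passed without control 5 (0.0485), control 7 (0.0452), Ehmt2Mat embryo 8 (0.0386) or Ehmt2Mat embryo 10 (0.0349), and it was lower in Ehmt2Mat embryos in all 27 alternatives that tested it.

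The targets for apoptosis and survival gave no call. Bax, whose product opens the outer mitochondrial membrane, was 7.23, 14.5 and 27.7 CPM in the lowest, median and highest control and 8.34, 19.3 and 35.5 CPM in Ehmt2Mat embryos. The groups overlapped except that Ehmt2Mat embryos 3 and 9 were above every control, and the log2 fold change was 0.33 (SE 0.34, 95% interval -0.37 to 1.04, edgeR adjusted p = 0.623). Bbc3, which encodes the BH3-only protein Puma, was at most 9.41 CPM in controls and 9.75 CPM in Ehmt2Mat embryos, with medians of 0.308 and 2.05 CPM. Controls 2 and 5 and Ehmt2Mat embryo 7 had no read of it, and its interval was wide (log2 fold change -0.05, SE 1.15, 95% interval -2.42 to 2.32, edgeR adjusted p = 0.985). The sign of Bbc3 differed between alternative fits, with 18 below and 9 above 0, from -0.73 without Ehmt2Mat embryo 8 to 0.65 without control 9 among those that left out 1 embryo. Phlda3, which encodes an inhibitor of Akt, was 0, 0.417 and 34.2 CPM in the lowest, median and highest control and 0.243, 1.35 and 18.3 CPM in Ehmt2Mat embryos. Control 1 alone reached 34.2 CPM, controls 7 and 8 had no read, and the log2 fold change was -0.49 (SE 1.09, 95% interval -2.75 to 1.76, edgeR adjusted p = 0.851). The sign of Phlda3 turned to 1.28 without control 1, it was 1.23 with DESeq2, and without Ehmt2Mat embryo 6 it was -1.31. Differences of 3-fold in either direction in Bbc3 and Phlda3 lie within these intervals, so a change of that size was not excluded at this depth and spread.

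**Figure D2:**
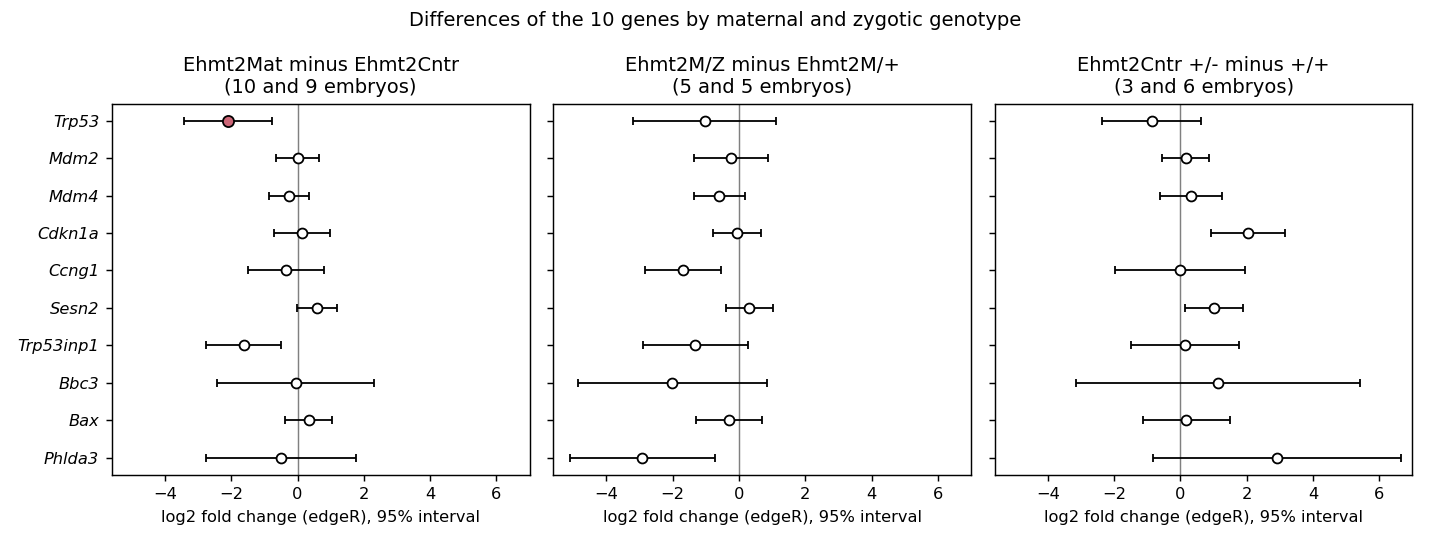
Log2 fold changes of the 10 genes from edgeR with 95% intervals, for maternal genotype (left), zygotic genotype within Ehmt2Mat (middle) and zygotic genotype within Ehmt2Cntr embryos (right). The filled point, Trp53 by maternal genotype at -2.09, is the call at an adjusted p under 0.05, and intervals are widest for Bbc3 and Phlda3.

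Levels were compared between genes per kilobase of exon, where the 3′ bias of the protocol makes them approximate. In controls the median levels were 33.5 CPM per kb for Mdm2, 33.1 for Sesn2, 17.7 for Cdkn1a, 17.2 for Mdm4, 16.7 for Bax and 10.1 for Ccng1. Trp53 followed at 5.72 and Trp53inp1 at 3.87 CPM per kb, and Phlda3 and Bbc3 were at 0.267 and 0.153. Of neighbours in this order, Sesn2 was above Cdkn1a in 9 of 9 controls, Bax above Ccng1 in 8 and Trp53 above Trp53inp1 in 7, while Mdm2 was above Sesn2 in 4, Cdkn1a above Mdm4 in 5, Mdm4 above Bax in 4 and Ccng1 above Trp53 in 4, so that these last pairs were not ordered beyond their spread. In Ehmt2Mat embryos Sesn2 led at 43.8 CPM per kb and was above Mdm2 in 8 of 10 embryos. Trp53 was seventh in both groups, at 1.24 CPM per kb in Ehmt2Mat embryos, where Ccng1 was above it in 8 of 10 embryos.

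Zygotic loss of Ehmt2 on top of the maternal loss was examined within Ehmt2Mat embryos. No gene of 12195 passed (0%, edgeR), with 270 at an unadjusted p under 0.05 and 3 called by DESeq2 (0.0246%). The same held between +/- and +/+ controls, where 0 of 12646 genes passed (0%), with 572 at an unadjusted p under 0.05 and 3 called by DESeq2 (0.0237%). In these comparisons of 5 with 5 and 3 with 6 embryos the values below are descriptions. Apart from Trp53, the genes given were the 2 of the 10 in each comparison with an unadjusted edgeR p under 0.05. Their intervals are not adjusted for such a selection or for the number of genes tested, so an interval without 0 is not a call.

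Ccng1 was 4.19, 7.32, 8.51, 16.6 and 17.4 CPM in the Ehmt2M/Z embryos and 10.1, 27.4, 31.1, 42.5 and 64.1 CPM in the Ehmt2M/+ embryos. All 5 Ehmt2M/Z embryos lay below the Ehmt2M/+ median, and the ranges overlapped through Ehmt2M/+ embryo 2 (log2 fold change -1.69, 95% interval -2.83 to -0.55, edgeR adjusted p = 1.00). Phlda3 was 0.243, 0.649, 0.699, 1.24 and 1.45 CPM in Ehmt2M/Z and 0.328, 2.91, 4.36, 6.43 and 18.3 CPM in Ehmt2M/+ embryos, with 1 Ehmt2M/+ embryo, number 10, in the range of the Ehmt2M/Z embryos (log2 fold change -2.92, 95% interval -5.10 to -0.73, edgeR adjusted p = 1.00). Trp53 was 0.543, 0.923, 2.19, 11.6 and 12.0 CPM in Ehmt2M/Z and 0.574, 3.37, 6.66, 18.6 and 26.8 CPM in Ehmt2M/+ embryos. Both subgroups held embryos under 1 CPM and above 11 CPM (log2 fold change -1.04, 95% interval -3.19 to 1.12, edgeR adjusted p = 1.00).

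Among controls, Cdkn1a was 49.0, 109 and 168 CPM in the 3 +/- embryos and 9.00, 23.8 and 48.5 CPM in the lowest, median and highest of the 6 +/+ embryos. The subgroups did not overlap, by a margin of under 1 CPM (log2 fold change 2.04, 95% interval 0.93 to 3.15, edgeR adjusted p = 1.00). How many of all genes separated these embryos in the same way was not counted, so the separation is not read as particular to Cdkn1a. Sesn2 was 115, 185 and 265 CPM in +/- and 52.998, 87.5 and 161 CPM in the lowest, median and highest +/+ embryo, with an overlap (log2 fold change 1.02, 95% interval 0.15 to 1.89, edgeR adjusted p = 1.00). Against the +/- controls alone, Cdkn1a in Ehmt2M/+ embryos had a log2 fold change of -0.85 (edgeR adjusted p = 0.767). Over all embryos it was 0.14 (edgeR adjusted p = 0.891), of opposite sign. The first fit left out the Ehmt2M/Z embryos as well as the +/+ controls. Neither value passed, so no direction of Cdkn1a by maternal genotype was established.

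The wider p53 pathway was read from gene lists. Of 40 other p53 targets tested, 1 rose and 1 fell (2.5% each, against 4.37% and 4.98% of all genes), with a median log2 fold change of 0.20. Ei24, an endoplasmic reticulum protein gene with a role in autophagy, rose from 276 ± 96.2 to 491 ± 105 CPM (mean ± SD, log2 fold change 0.83, SE 0.20, edgeR adjusted p = 0.0111). Perp, which encodes a membrane protein of desmosomes and an effector of apoptosis, fell from 27.96 ± 35.8 to 4.35 ± 4.58 CPM (log2 fold change -2.68, SE 0.79, edgeR adjusted p = 0.0321). Perp lost its call without control 6 or 7 or without Ehmt2Mat embryo 2, 4 or 7 (edgeR adjusted p up to 0.108). DESeq2 called 4 of these targets higher and 2 lower, against 7.04% and 8.06% of all genes.

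Of 38 regulators of p53, 3 rose (7.89%, against 4.37% of all genes) and 2 fell (5.26%, against 4.98%), with a median of -0.13. Prmt5, an arginine methyltransferase with p53 among its substrates, rose from 166 ± 73.2 to 286 ± 72.5 CPM (log2 fold change 0.78, SE 0.22, edgeR adjusted p = 0.0248). Hexim1, known as an inhibitor of transcription elongation that can bind p53, rose from 22.3 ± 13.1 to 55.2 ± 33.0 CPM (1.30, SE 0.37, edgeR adjusted p = 0.0286). Kat5, the acetyltransferase Tip60, rose with a log2 fold change of 0.97 (SE 0.31, edgeR adjusted p = 0.0452). Trp53rkb, a p53-regulating kinase gene with a near-identical copy that can share its reads, fell by 1.75 on the log2 scale (SE 0.50, edgeR adjusted p = 0.0270). The call of Kat5 held without control 1 or 5 or Ehmt2Mat embryo 8 or 10 and was lost without any other single embryo (edgeR adjusted p up to 0.0829). Hexim1 lost its call without control 2, 3, 6, 7 or 8 or Ehmt2Mat embryo 9 (up to 0.0677), and Trp53rkb without control 3 or 5 (up to 0.0587). With sex as a covariate Kat5 and Trp53rkb were not called (edgeR adjusted p = 0.0721 and 0.0894), and Trp53rkb was not called without a filter on low counts (0.0519).

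Of 30 genes of the BCL2 family and caspases, 4 fell (13.3%, against 4.98% of all genes) and none rose, with a median of -0.32. Bok, a BCL2 family effector, fell from 148 ± 116 to 26.7 ± 18.4 CPM (log2 fold change -2.47, SE 0.42, edgeR adjusted p = 0.000945). Vdac2, a mitochondrial channel gene, Casp6, an executioner caspase, and Xiap, an inhibitor of caspases, fell by 0.80, 0.97 and 1.15 on the log2 scale (edgeR adjusted p = 0.0101, 0.0134 and 0.0227). With sex as a covariate the call of Xiap was lost (-0.82, edgeR adjusted p = 0.104). The members that fell thus hold both promoters and an inhibitor of apoptosis. Among 8 tested paralogs of the 10 genes, Bok was the one that passed (12.5% lower, against 4.98% of all genes). Of 23 genes of the integrated stress response, Sesn2 among them, 2 rose (8.7%, against 4.37% of all genes) and none fell. The median of this list was 0.35. Hspa5, the chaperone BiP of the endoplasmic reticulum, rose from 146 ± 103 to 408 ± 130 CPM (log2 fold change 1.48, SE 0.32, edgeR adjusted p = 0.00496), and Ppp1r15a, a phosphatase subunit that reverses eIF2α phosphorylation, rose from 19.7 ± 11.4 to 69.7 ± 40.4 CPM (1.82, SE 0.40, edgeR adjusted p = 0.00544).

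**Figure D3:**
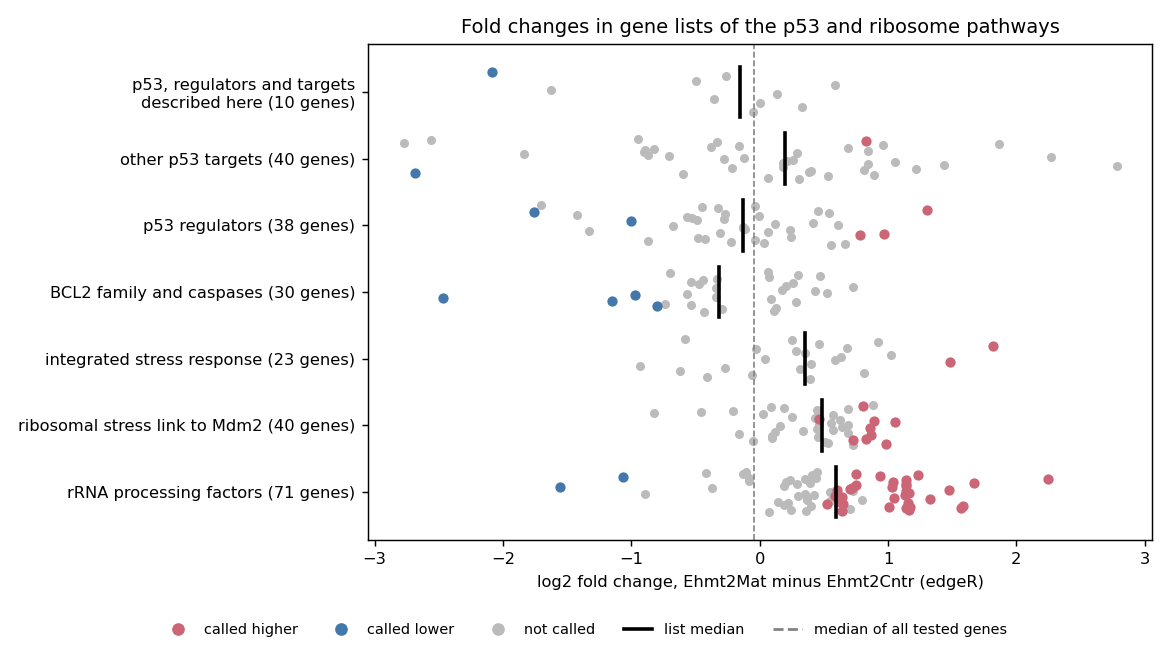
Log2 fold change (Ehmt2Mat minus Ehmt2Cntr, edgeR) of every tested gene in 7 lists, each point a gene and coloured where its adjusted p was under 0.05. Black bars are list medians, from -0.32 for the BCL2 family and caspases to 0.59 for rRNA processing factors, and the dashed line is the median of all tested genes at -0.04.

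Genes of ribosome production were the other side of the question. Of 71 rRNA processing factors, 33 rose (46.5%, against 4.37% of all genes) and 2 fell, with a median of 0.59. Nolc1, a nucleolar chaperone, rose from 662 ± 177 to 1961 ± 683 CPM (log2 fold change 1.57, SE 0.21, edgeR adjusted p = 0.000178) and Nop2, an rRNA methyltransferase, from 154 ± 55.8 to 490 ± 177 CPM (1.67, SE 0.23, edgeR adjusted p = 0.000266). Rcl1 and Ddx47, both needed for 18S rRNA maturation, rose by 1.32 and 1.47 on the log2 scale (SE 0.20 and 0.22, edgeR adjusted p = 0.000435 for both), whereas Utp18 and Imp3, parts of the small subunit processome, fell by 1.07 and 1.56 (edgeR adjusted p = 0.00629 and 0.00646). Of 40 genes that link ribosomal stress to Mdm2, ribosomal proteins among them, 9 rose (22.5%) and none fell, with a median of 0.49. The 4 with the smallest adjusted p were Pes1, Rps3, Ncl and Rrn3, which rose by 0.99, 0.86, 0.87 and 0.83 on the log2 scale (edgeR adjusted p = 0.00295 to 0.00514). Rps3, like other ribosomal protein genes, has pseudogene copies that can share reads with it. The direction of every list gene named here was the same in all alternatives that tested it, while none of them passed among +/- embryos alone.

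Whether embryos with more rRNA processing transcripts also had more p53 target transcripts was examined embryo by embryo. The mean log2 CPM of the 71 genes was 6.82 to 7.25 in controls (7.05 ± 0.16, SD) and 7.36 to 7.88 in Ehmt2Mat embryos (7.64 ± 0.21, SD), so that all 10 Ehmt2Mat embryos lay above every control. Because the groups did not overlap in this measure, relations with the 10 genes were computed within each group. None of the 20 passed after Benjamini-Hochberg adjustment (lowest adjusted permutation p = 0.202 for Pearson's r and 0.131 for Spearman's rho), and 4 had an unadjusted permutation p under 0.05.

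In Ehmt2Mat embryos, Sesn2 was higher in embryos with a higher rRNA processing level (r = 0.72, permutation p = 0.0219, adjusted 0.202; rho = 0.68, permutation p = 0.0338). Its r was 0.69 without the 2 embryos farthest from the median, and in controls it was 0.38. Mdm2 ran the other way (r = -0.62, permutation p = 0.0303, adjusted 0.202; rho = -0.67, permutation p = 0.0397) with r = -0.47 without the 2 farthest embryos and r = 0.03 in controls. In controls, Cdkn1a gave r = 0.69 (exact permutation p = 0.0412, adjusted 0.206; rho = 0.70, p = 0.0433), which dropped to 0.34 without the 2 farthest embryos, and Phlda3 gave r = 0.78 (exact permutation p = 0.0153, adjusted 0.202; rho = 0.85, p = 0.00657) and 0.79 without them. In Ehmt2Mat embryos r was -0.11 for Cdkn1a and 0.17 for Phlda3, and the difference between the groups was not tested. For Trp53 the values were r = 0.28 in controls (exact permutation p = 0.453; rho = 0.37, p = 0.336) and 0.02 in Ehmt2Mat embryos (permutation p = 0.950; rho = -0.03, p = 0.946).

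**Figure D4:**
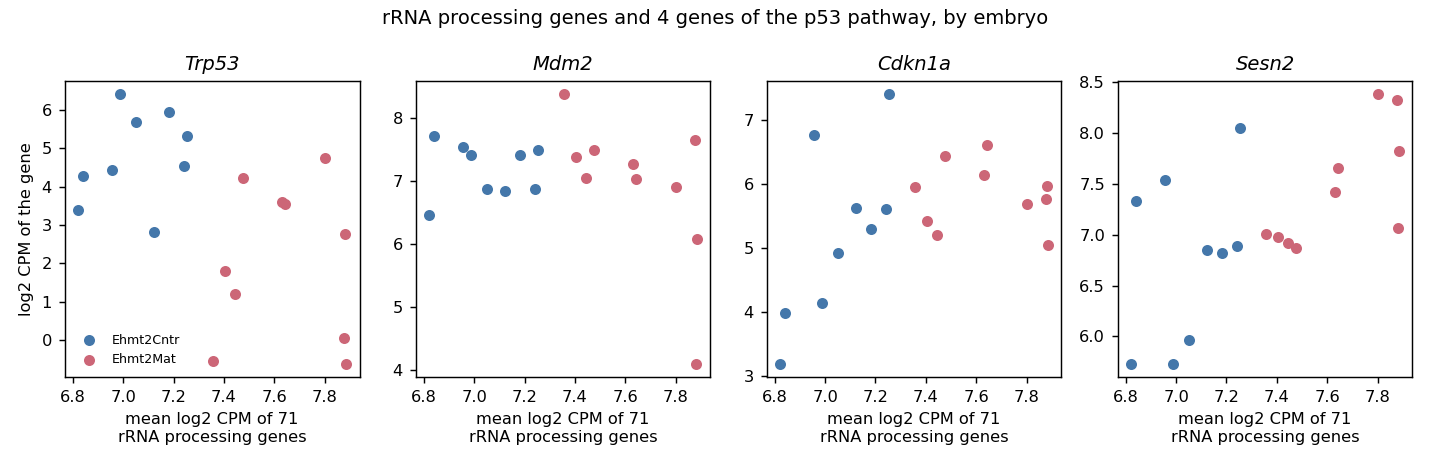
Log2 CPM of Trp53, Mdm2, Cdkn1a and Sesn2 (y axes, differently scaled) against the mean log2 CPM of 71 rRNA processing genes (x axes), with 1 point per embryo. The Ehmt2Mat embryos (7.36 to 7.88) sit to the right of all controls (6.82 to 7.25), and within Ehmt2Mat embryos Sesn2 slopes upwards (r = 0.72).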

How the data were processed

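RNA of single 8C embryos was amplified by a protocol with 3′ bias and sequenced as single 50-base reads. Raw counts of reads per Ensembl gene were deposited by the authors, without normalization: per the file headers, featureCounts 1.5.0 was run on exons of Ensembl release 82 (GRCm38). A read needed 10 bases on an exon, counted for all genes it touched, was kept when it mapped to several places and was not separated by strand. The submitters' processing notes name TopHat2 as aligner. For gene expression, the study's methods describe SeqMonk counts, whereas the headers record featureCounts. Reads carry no molecular identifiers, so limits at low counts cover counting error only. No exon base of the 10 genes was shared with another gene.

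From the counts, genes kept by edgeR's filterByExpr were tested (edgeR 4.0.16 in R 4.3.3, TMM, quasi-likelihood test, Benjamini-Hochberg over all tested genes, threshold 0.05), without covariates. Symbols came from an Ensembl gene table (34599 of 34937 identifiers matched). Single genes were compared by exact permutation (all splits enumerated in Python 3.11.15, pseudocount 1). DESeq2 1.42.0, other normalizations and filters, thinning, covariates and leaving out embryos were alternatives. The fit was tested on simulated data. Named were the 10 genes, Ehmt2, up to 4 genes per direction and pathway list by smallest adjusted p (called markers were added later), and the 3 genes most like Trp53 and Mdm2. A called gene among the p53 regulators is counted but not reported here by name. The genes and lists were chosen with earlier results of these data known.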

Additional observations from a re-analysis of the deposited data

Results flagged for a closer look

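Of 50 groups of 5 to 10 embryos examined, 1 for each gene and group or subgroup, 2 held an embryo far from the rest by Dixon's ratio. Chance flags about 1 in 20. The +/- controls alone were not examined. Sesn2 was 8.38 on the log2 CPM scale (333 CPM) in Ehmt2Mat embryo 2, against 7.06 in the next of the 5 Ehmt2M/+ embryos, a gap of 0.873 of the subgroup's range. Bbc3 was 3.25 (9.41 CPM) in control 9, against -1.26 in the next of the 6 +/+ controls, a gap of 0.700 of the range.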

How the results depend on the processing

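Trp53 was lower in Ehmt2Mat embryos in all 27 alternatives that tested it and passed the threshold in 15. It passed with RLE and upper-quartile normalization, with DESeq2 in place of edgeR, without a filter, with sex or the replicate block as covariate and on thinned counts. Among +/- embryos alone the log2 fold change was -1.03, with 1 gene called in all and 0 of the 10 genes called lower. Without 1 embryo it ranged from -2.50 to -1.82. Requiring at least 10 counts in every embryo removed Trp53, Trp53inp1, Bbc3 and Phlda3 and left 0 of the 10 genes called. With DESeq2 and with thinned counts 2 of the 10 genes were called lower, and without 1 embryo 0 to 2. Of all genes, 1775 were called with DESeq2, 1201 without a filter, 1375 under that 10-count minimum and 884 to 1262 without 1 embryo. Higher genes made up 514 of 1099 calls but 658 of 1201 without a filter, where the median of all genes moved to 0.13. By zygotic genotype, DESeq2 called 3 genes in Ehmt2Mat and 3 in control embryos, and edgeR 0 to 1 among controls without 1 embryo, the 1 being without control 10.

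Equal embryo numbers did not pair the groups: deviations of same-numbered embryos correlated at -0.156 to 0.0856 over 9 pairs, and 0 of 9 controls matched its own number best. The fit with the replicate block (18 embryos) gave -2.86 for Trp53 and called 693 genes, against 884 in the same embryos without it.

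The lists' small counts moved with the settings. Without 1 embryo, the other p53 targets gave 1 to 2 higher and 0 to 2 lower, 0 lower without control 6 or 7 or Ehmt2Mat embryo 2, 4 or 7. The p53 regulators gave 1 to 4 higher, 1 without control 2, 6, 7 or 8 or Ehmt2Mat embryo 9, and 1 to 3 lower. The rRNA processing factors gave 26 to 33 higher calls and 21 with the replicate block, where Kat5, Trp53rkb, Imp3, Casp6 and Tfap2c were not called (edgeR adjusted p = 0.127, 0.235, 0.0878, 0.0503 and 0.0822).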

Other observations

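Trp53 level was set against the level of each of the other 9 genes within each group, a comparison chosen after seeing the data. None of the 18 relations had an unadjusted permutation p under 0.05 (Pearson's r from -0.43 to 0.57, lowest adjusted p = 0.891), so embryos with less Trp53 transcript did not show a detectable shift in the transcripts of its inhibitors or targets at this number of embryos.

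After subtraction of the group means, the genes whose log2 CPM followed Trp53 most closely over the 19 embryos, among 11753 others, were Calr3 (r = 0.82), Gtse1 (r = 0.79) and Dbt (r = 0.78). Gtse1, one of the other p53 targets listed here, encodes a G2 phase protein that binds p53. For Mdm2 they were Ankrd44 (r = 0.90), Tmco3 (r = 0.89) and Prlr (r = 0.88). These are the highest of many correlations and were given no test.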
